A study of Rattus norvegicus with 8 samples.

Results

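Ifit2, Ifit3, Isg15, Mx1, Irf1, Irf7, Psmb8, Psmb9 and Tap1 are genes that interferons induce, and the last 3 prepare peptides for display on MHC class I. Every probe set with one of these 9 symbols was taken, whatever its values, which gave 11 of the 31099 probe sets and 9 of the 14217 genes named by a single symbol. They were measured on Affymetrix rat arrays in FRTL-5, a rat thyroid follicular cell line (sub-clone SB5), in medium that held bovine TSH at 5 mU/ml. The cells stably expressed a human TSH receptor, either carrying the activating substitution L629F, by which it signals in the absence of TSH, or wild type. The 4 groups of 2 arrays were L629F cells with 1 mM sodium iodide, L629F cells with 1 mM sodium chloride, wild type cells with 1 mM sodium iodide and wild type cells with 1 mM sodium chloride. Sodium chloride was the control of equal salt strength. The question of the series is what iodide does to transcript levels when thyroid cells escape control by TSH. The labels give 1 line per receptor, so receptor and line cannot be told apart. They state no duration of treatment and do not tell whether the replicates came from separate cultures, and the p-values therefore cover no more than the array-to-array spread, which may be technical.

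Type I interferons signal through a receptor and Janus kinases to transcription factors that bind the interferon-stimulated response element (ISRE). Interferon gamma acts through the gamma-activated site (GAS) and through IRF1. Among the targets are antiviral proteins, the inducible proteasome subunits that replace constitutive ones, and the TAP transporter that carries peptides into the endoplasmic reticulum. Thyroid follicular cells are known to raise MHC class I in response to interferon.

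The promoters of 7 members were matched by symbol to RefSeq sequence of the rat build GRCr8, from 250 bases before to 50 after the gene's start. Those of Ifit2 and Isg15 were not used here. Ifit2, Ifit3 and Irf7 lie on chromosome 1, Isg15 on 5, Irf1 on 10, Mx1 on 11 and the others on 20. Both strands were searched for an ISRE, written as GAAA, any 2 bases and GAAA again, and for a GAS, written as TTC, any 3 bases and GAA. Matches of the 2 motifs may overlap. An ISRE match was present in 4 of the 7, namely Ifit3, Irf7, Psmb8 and Tap1, and in 3.92% of all 33469 promoters. A GAS match was present in 2 of the 7, Irf1 and Psmb8, and in 8.87% of all promoters. Of 79 other interferon and antigen processing genes with a promoter, 37 held an ISRE match and 18 a GAS match. Shown first are Psmb8, Psmb9 and Tap1, which lie side by side on chromosome 20 in the order Tap2, Psmb8, Tap1, Psmb9, and then Ifi44 and Lgals3bp, the other interferon-induced genes that passed a test below. The sequences run 5′ to 3′ on the gene's strand, and capitals mark ISRE and GAS matches on either strand.
Psmb8: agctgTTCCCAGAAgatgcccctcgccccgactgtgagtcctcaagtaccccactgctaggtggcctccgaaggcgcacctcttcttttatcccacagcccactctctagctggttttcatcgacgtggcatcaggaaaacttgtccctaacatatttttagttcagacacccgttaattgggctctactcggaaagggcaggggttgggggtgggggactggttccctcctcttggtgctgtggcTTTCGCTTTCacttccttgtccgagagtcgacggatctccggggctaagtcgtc
Tap1: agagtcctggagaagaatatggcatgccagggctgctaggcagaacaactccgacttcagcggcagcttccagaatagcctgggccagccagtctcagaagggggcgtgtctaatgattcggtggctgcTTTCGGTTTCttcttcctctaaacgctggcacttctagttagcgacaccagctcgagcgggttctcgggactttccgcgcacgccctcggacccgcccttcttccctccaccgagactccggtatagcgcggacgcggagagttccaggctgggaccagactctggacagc
Psmb9: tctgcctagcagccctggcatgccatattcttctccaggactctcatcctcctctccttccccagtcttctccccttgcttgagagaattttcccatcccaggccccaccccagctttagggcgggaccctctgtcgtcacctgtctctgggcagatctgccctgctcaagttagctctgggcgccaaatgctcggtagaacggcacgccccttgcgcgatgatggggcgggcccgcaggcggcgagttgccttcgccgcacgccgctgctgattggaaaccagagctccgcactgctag
Ifi44: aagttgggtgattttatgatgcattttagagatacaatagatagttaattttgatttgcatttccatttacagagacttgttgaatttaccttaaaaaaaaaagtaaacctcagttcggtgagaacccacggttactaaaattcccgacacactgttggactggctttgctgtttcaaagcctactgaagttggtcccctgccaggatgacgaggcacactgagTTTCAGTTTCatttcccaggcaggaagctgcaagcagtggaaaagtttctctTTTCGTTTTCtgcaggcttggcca
Lgals3bp: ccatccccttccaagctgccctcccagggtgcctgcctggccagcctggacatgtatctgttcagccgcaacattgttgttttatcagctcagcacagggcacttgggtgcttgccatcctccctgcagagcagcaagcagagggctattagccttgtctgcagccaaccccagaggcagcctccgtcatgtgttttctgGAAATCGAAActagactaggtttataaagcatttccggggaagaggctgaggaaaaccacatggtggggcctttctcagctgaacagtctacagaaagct
The Psmb8 window is chr20:4656982-4657281 on the minus strand, with a GAS match (TTCCCAGAA) beginning 245 bases and an ISRE match (TTTCGCTTTC) beginning 4 bases before the start. Tap1 (chr20:4668494-4668793, minus strand) and Psmb9 (chr20:4668750-4669049, plus strand) are transcribed away from each other from starts 457 bases apart, and their windows share 44 bases. The Tap1 ISRE match (TTTCGGTTTC) began 121 bases before its start, and the Psmb9 window held neither motif. Ifi44 (chr2:243303791-243304090, minus strand) held 2 ISRE matches, and Lgals3bp (chr10:104127799-104128098, minus strand) held 1 (GAAATCGAAA). These matches describe the letters only.

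The deposited values were MAS5 signals on a linear scale, and changes are given as log2(signal + 35.3), the added 35.3 being the 25th percentile over all arrays. Changes of dim genes come out too small on this scale. Of the 9 members, 7 were bright enough to be tested, each by its brightest probe set. Ifit3 (mean signal 36.5) and Mx1 (66.9) were near background, meaning a mean under 70, as was the dimmer of the 2 Tap1 probe sets (19.2). Mx1 lay just inside that limit, and the nearest probe set above it was the dimmer one of Ifit2 (95.1). The 25th percentile of all signals ran from 40.8 to 43.1 on the L629F arrays and from 29.3 to 31.6 on the wild type arrays. Across the kept probe sets, arrays of 1 group had log2 signals correlated at 0.962 to 0.976, and the least similar pair of all arrays at 0.947. The GAPDH 3′ to 5′ ratio, which is higher in degraded RNA, ran from 1.54 to 2.49 on L629F and from 1.22 to 3.13 on wild type arrays. In L629F cells it was 2.27 and 2.49 with iodide against 1.54 and 2.17 with chloride. In wild type cells it was 1.40 and 3.13 with iodide against 1.22 and 1.55 with chloride. Measured on beta-actin instead, the L629F chloride arrays (5.93 and 7.90) lay above the wild type chloride arrays (2.23 and 5.05). There the iodide arrays overlapped, at 5.95 and 6.48 in L629F cells and 3.66 and 9.15 in wild type cells. All 6 thyroid follicular cell markers on the array (Tg, Slc5a5, Pax8, Nkx2-1, Foxe1, Tshr) were above 70. Of 12 leucocyte markers 7 were near background, Ptprc, Cd3d, Cd79b and Itgam among them. The summed signal of all 12 was 880 to 1000.0 on L629F arrays and 772 to 982 on wild type arrays.

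**Figure D1:**
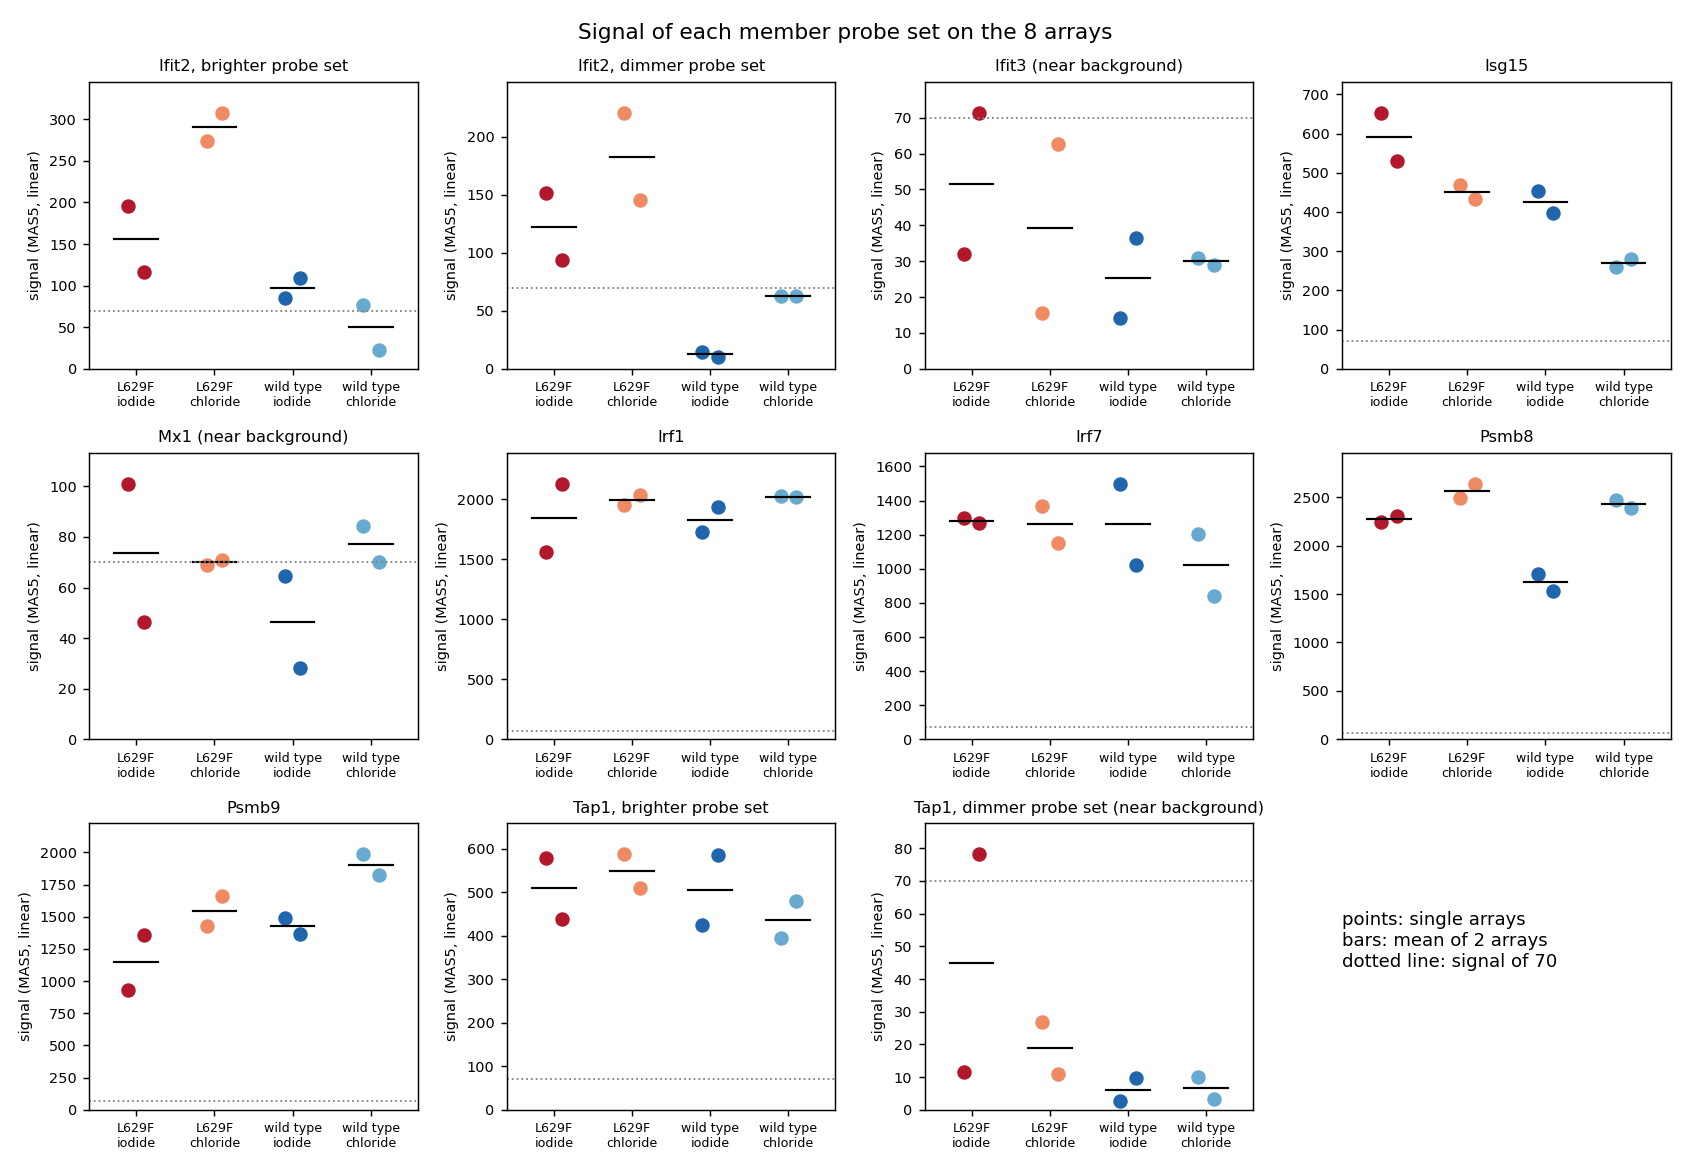
Signal (linear scale, axes from 0) of the 11 member probe sets on each of the 8 arrays, by group, with bars at the mean of 2 arrays and a dotted line at 70. The L629F arrays lie above the wild type arrays for both Ifit2 probe sets, and both wild type iodide arrays lie lowest for Psmb8.

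Ifit2, whose RNA-binding protein restrains viral translation, had the largest difference between the receptors among the members. Its brighter probe set read 195.8 and 116.8 in L629F cells with iodide, 274.1 and 307.5 in L629F cells with chloride, 84.8 and 108.9 in wild type cells with iodide, and 76.4 and 23.0 in wild type cells with chloride. All 4 L629F arrays thus lay above all 4 wild type arrays. Without iodide it was higher in L629F cells by 2.01 ± 0.38 on the log2 scale (SE; 95% interval 1.21 to 2.82; adjusted p = 0.0381), or 4.04-fold. It was the only member of 7 past the threshold in that comparison, in which 0.488% of all 10047 genes passed. With iodide the difference was 0.51 ± 0.38 (adjusted p = 0.620), and no member passed where 0.508% of all genes did. Averaged over both salts it was higher in L629F cells by 1.26 ± 0.27 (adjusted p = 0.0230). The groups did not overlap for 5.68% of all genes in that direction and for this member alone.

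The wild type chloride arrays differed from each other (76.4 and 23.0), and the comparison without iodide lost its call without any 1 of its 4 arrays. Left out in turn, wild type chloride replicate 1 gave 2.48 for Ifit2 (adjusted p = 0.0917), wild type chloride replicate 2 gave 1.54 (0.296), L629F chloride replicate 1 gave 2.09 (0.227) and L629F chloride replicate 2 gave 1.94 (0.185). The average over both salts lost its call without wild type chloride replicate 2 (1.03, adjusted p = 0.107), wild type iodide replicate 1 (0.0511), L629F chloride replicate 1 (0.0748) or 2 (0.0874), or L629F iodide replicate 1 (0.0869). Ifit2 is dim, and low signals were higher on the L629F arrays. When every array was first centred on its overall median, the Ifit2 difference was 1.86 without iodide (adjusted p = 0.0421) and 1.09 over both salts (adjusted p = 0.0214). With the GAPDH ratio as a covariate these were 2.02 and 1.27. Centring shifts all genes of an array by the same amount, so it cannot remove a difference confined to dim signals. Whether such a difference adds to the Ifit2 result was not tested.

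The dimmer Ifit2 probe set read 151.1 and 93.8 in L629F cells with iodide, 220.4 and 145.4 in L629F cells with chloride, 14.2 and 10.5 in wild type cells with iodide, and 63.1 and 62.8 in wild type cells with chloride. Here too every L629F array lay above every wild type array. All wild type arrays lay under 70, the limit for near background, with a mean of 37.6. In wild type cells with chloride the brighter probe set also averaged under that limit, at 49.7. The dimmer probe set was kept through its L629F arrays, which averaged 152.7, so the size of its difference is uncertain. Fitted with every kept probe set on its own (13927 probe sets), it was higher in L629F cells by 1.42 ± 0.28 over both salts (adjusted p = 0.0223), by 1.71 ± 0.40 with iodide (adjusted p = 0.108) and by 1.13 ± 0.40 without (adjusted p = 0.271). In the same fit the probe sets disagreed on iodide in wild type cells, at 0.71 for the brighter (adjusted p = 0.520) and -1.05 for the dimmer (adjusted p = 0.328). In L629F cells both were below 0 with iodide, at -0.80 for the brighter (adjusted p = 0.710) and -0.47 for the dimmer (adjusted p = 0.853). Neither passed the threshold for iodide in either line. Ifit3, a partner of Ifit2 in the same family, read 31.96 and 71.3 in L629F cells with iodide, 15.5 and 62.7 in L629F cells with chloride, 14.1 and 36.6 in wild type cells with iodide, and 30.9 and 29.0 in wild type cells with chloride. Near background, the arrays of the 2 salts overlapped within each line and those of the 2 receptors within each salt.

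Isg15, a ubiquitin-like protein that is conjugated to other proteins, gave smaller differences with the same direction in both lines and both salts. It read 652.3 and 530.4 in L629F cells with iodide, 469.0 and 434.3 in L629F cells with chloride, 454.6 and 397.2 in wild type cells with iodide, and 260.0 and 279.2 in wild type cells with chloride. Within each salt both L629F arrays lay above both wild type arrays, with iodide at 530.4 and above against 454.6 and below. Within each line both iodide arrays lay above both chloride arrays. Over both salts Isg15 was higher in L629F cells by 0.56 ± 0.14 (adjusted p = 0.04996), which made it with Ifit2 1 of 2 members of 7 past the threshold there, against 3.16% of all genes. That p lies at the threshold, and the call was lost in all 8 fits that left out 1 array (adjusted p from 0.0573 to 0.179). For iodide the average over both lines was 0.48 ± 0.14 (adjusted p = 0.112), with 0.36 ± 0.20 in L629F cells and 0.60 ± 0.20 in wild type cells.

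Mx1, a dynamin-like antiviral GTPase, read 101.1 and 46.4 in L629F cells with iodide, 68.8 and 71.1 in L629F cells with chloride, 64.6 and 28.2 in wild type cells with iodide, and 84.5 and 70.1 in wild type cells with chloride. Being near background it was not in the main test. Fitted without a filter over 20826 probe sets, its changes and those of Ifit3 had adjusted p of 0.649 or more in all 7 comparisons. The dimmer Tap1 probe set ran from 2.62 to 78.3, with the highest value in L629F iodide replicate 2, and had adjusted p of 0.348 or more.

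The 2 transcription factors were bright, and neither passed in any comparison. Irf1, which drives the interferon gamma response of antigen processing genes, read 1558 and 2130 in L629F cells with iodide, 1947 and 2034 in L629F cells with chloride, 1724 and 1932 in wild type cells with iodide, and 2025 and 2016 in wild type cells with chloride. The lowest and the highest value were both L629F iodide arrays. Its difference between the receptors over both salts was -0.01 ± 0.12, with a 95% interval from -0.26 to 0.24, and for iodide over both lines -0.13 ± 0.12 (-0.38 to 0.11). Irf7, the factor that amplifies type I interferon production, read 1296 and 1269 in L629F cells with iodide, 1369 and 1150 in L629F cells with chloride, 1500 and 1024 in wild type cells with iodide, and 1207 and 842 in wild type cells with chloride. Arrays of the 2 salts overlapped within each line, and arrays of the 2 receptors within each salt. The differences over both salts and both lines were 0.18 ± 0.15 (-0.14 to 0.49) and 0.16 ± 0.15 (-0.16 to 0.48). The intervals leave room for changes of that size in either gene.

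**Figure D2:**
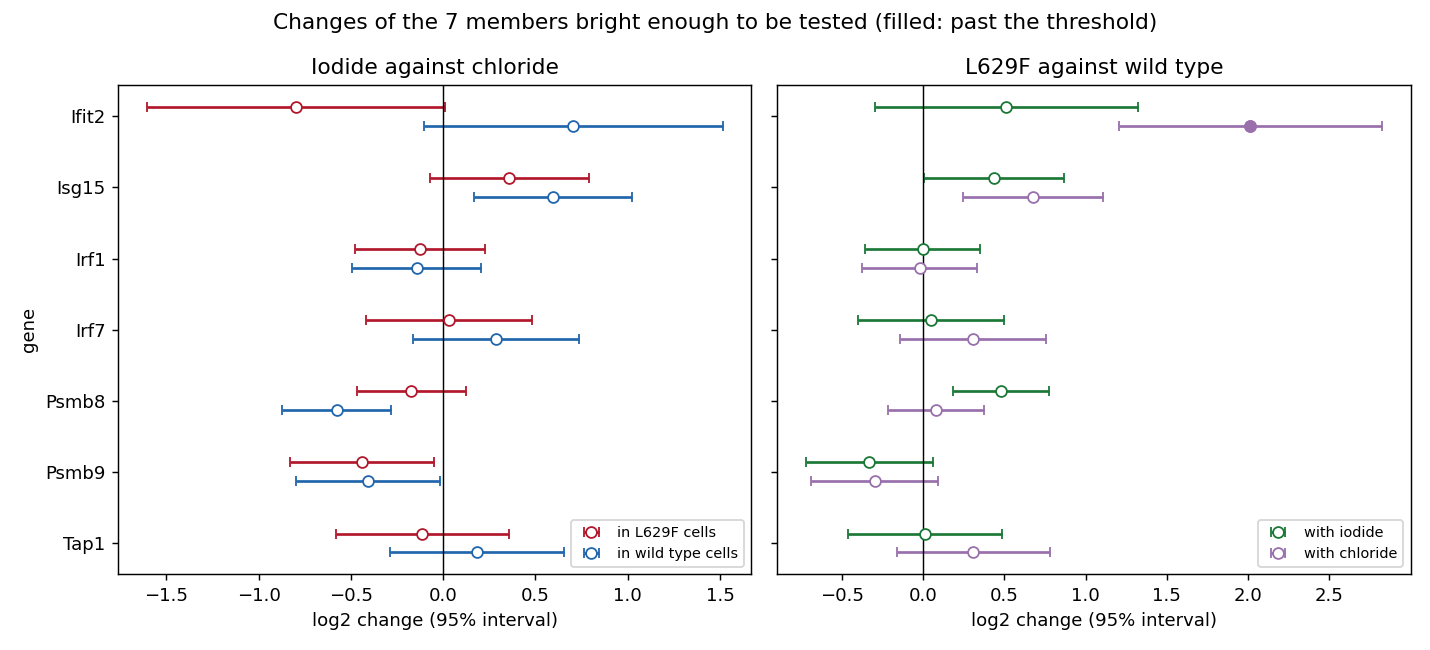
Log2 changes with 95% intervals of the 7 tested members, for iodide against chloride in each line (left) and for L629F against wild type in each salt (right), with filled points past an adjusted p of 0.05. Only Ifit2 without iodide is filled, at 2.01, and the intervals of Irf1, Irf7 and Tap1 include 0 in all 4 comparisons.

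Psmb8 and Psmb9, which replace the constitutive subunits Psmb5 and Psmb6 in the proteasome of interferon-treated cells, had negative values with iodide in both lines, and neither passed the threshold. Psmb8 read 2247 and 2302 in L629F cells with iodide, 2497 and 2641 in L629F cells with chloride, 1708 and 1534 in wild type cells with iodide, and 2476 and 2386 in wild type cells with chloride. All 4 iodide arrays lay below all 4 chloride arrays, as was the case for 2.99% of all genes and for this member alone. The log2 value was -0.17 ± 0.14 in L629F cells and -0.58 ± 0.14 in wild type cells (adjusted p = 0.797 and 0.106; no member passed in either, against 0.0896% and 0.468% of all genes), and -0.37 ± 0.10 over both lines (adjusted p = 0.0756; 1.66% of all genes and none of the 7 members passed). The difference of these effects, 0.40 ± 0.19, did not pass (adjusted p = 0.993; 0% of all genes and no member passed). With iodide the difference of Psmb8 between L629F and wild type cells was 0.48 ± 0.14 (adjusted p = 0.174).

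Psmb9 read 934 and 1359 in L629F cells with iodide, 1430 and 1660 in L629F cells with chloride, 1487 and 1367 in wild type cells with iodide, and 1987 and 1822 in wild type cells with chloride. Within each line both iodide arrays lay below both chloride arrays. The log2 values were -0.44 ± 0.18 in L629F cells, -0.41 ± 0.18 in wild type cells and -0.42 ± 0.13 over both lines (adjusted p = 0.571, 0.375 and 0.121). Psmb10, the third inducible subunit, was at -0.29 ± 0.16 over both lines (adjusted p = 0.420).

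The constitutive counterparts gave small positive values, 0.22 ± 0.13 for Psmb5 and 0.15 ± 0.09 for Psmb7 over both lines (adjusted p = 0.452 and 0.490). Of the 13 constitutive core subunits tested, none passed. Over both lines 8 were above 0, against 52.2% of all genes, and 5 below. Their median was 0.09, against 0.01 over all genes. Of these 13, 3 had an unadjusted p under 0.05, as had 15.2% of all genes. No test compared the inducible with the constitutive subunits. Tap1, a subunit of the peptide transporter and the divergent neighbour of Psmb9, read 579 and 438 in L629F cells with iodide, 588 and 510 in L629F cells with chloride, 424 and 586 in wild type cells with iodide, and 394 and 480 in wild type cells with chloride. Iodide and chloride arrays overlapped within each line, and the iodide value over both lines was 0.04 ± 0.15 (95% interval -0.30 to 0.37). With chloride both L629F arrays lay above both wild type arrays, a difference of 0.31 ± 0.22 that did not pass (adjusted p = 0.578).

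**Figure D3:**
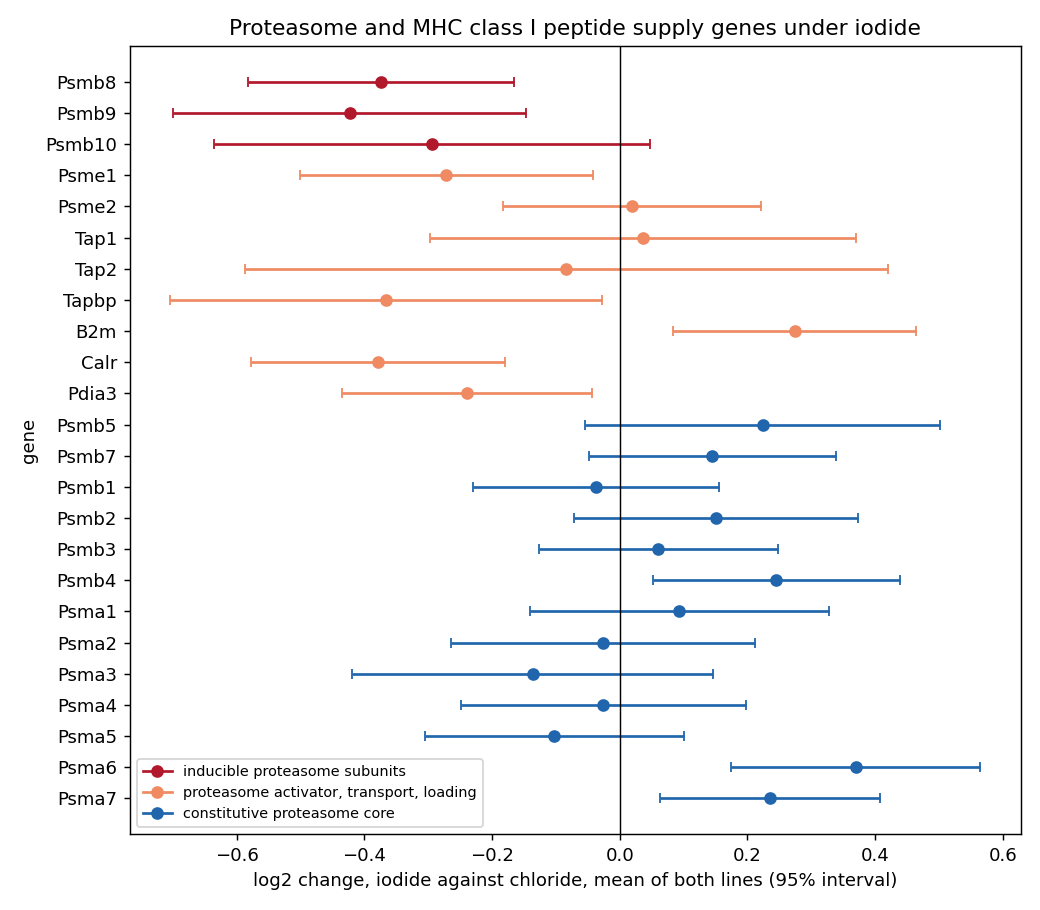
Log2 change with iodide against chloride, as the mean of both lines with 95% intervals, for inducible proteasome subunits, genes of peptide transport and loading, and 13 constitutive proteasome core genes. Psmb8 (-0.37) and Psmb9 (-0.42) lie below 0 with intervals that leave out 0. The intervals of Psme1 (-0.27), Calr (-0.38) and Pdia3 (-0.24) also lie below 0. None of the genes drawn passed an adjusted p of 0.05.

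Of 25 listed genes of MHC class I antigen processing other than the members, 17 were tested and none passed in any of the 7 comparisons. Over both lines 3 were above 0 with iodide, against 52.2% of all genes, and 14 below. The median of the 17 was -0.24, against 0.01 for all genes. An unadjusted p under 0.05 was found for 8 of them, and for 15.2% of all genes. Calr, the chaperone of the loading complex, had the smallest p. It read 4476 and 4436 in L629F cells with iodide, 5502 and 5334 in L629F cells with chloride, 4231 and 4310 in wild type cells with iodide, and 6590 and 5393 in wild type cells with chloride, so that no iodide array reached a chloride array. Its log2 value was -0.38 ± 0.09 (adjusted p = 0.0573). Pdia3, its partner disulfide isomerase, was at -0.24 ± 0.09 (adjusted p = 0.218), and Psme1, a subunit of the proteasome activator PA28, at -0.27 ± 0.11 (adjusted p = 0.232). Between the receptors, L629F against wild type over both salts, Psme1 had the lowest value of the 17, -0.42 ± 0.11 (adjusted p = 0.0519). Pdia3 went the other way, at 0.31 ± 0.09 (adjusted p = 0.0855). Of the 17 genes 11 were above 0 in this comparison, against 49.4% of all genes, and 6 below. Their median was 0.17, against -0.004 for all genes.

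Lgals3bp, a secreted galectin-binding glycoprotein, was the 1 of 65 tested list genes that passed for iodide over both lines, a share near the 1.66% of all genes that passed. It read 1053 and 1288 in L629F cells with iodide, 1916 and 2579 in L629F cells with chloride, 931 and 1263 in wild type cells with iodide, and 1842 and 1958 in wild type cells with chloride. No iodide array reached a chloride array. Over both lines Lgals3bp fell by 0.85 ± 0.13 log2 units (adjusted p = 0.00608), and without wild type chloride replicate 2 the adjusted p was 0.0539. Among the 30 tested genes of the list of other interferon-induced genes, 10 were above 0, against 52.2% of all genes, and 20 below. Their median was -0.10.

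Ifi44, a cytoplasmic interferon-induced protein, was the 1 of 65 tested list genes that passed between the receptors over both salts, a smaller share than the 3.16% of all genes that passed. It read 301 and 388 in L629F cells with iodide, 491 and 548 in L629F cells with chloride, 289 and 229 in wild type cells with iodide, and 254 and 267 in wild type cells with chloride. Every L629F array lay above every wild type array. Over both salts it was higher in L629F cells by 0.64 ± 0.16 (adjusted p = 0.0449), and the call was lost in 7 of 8 fits that left out 1 array (adjusted p up to 0.151). Bst2, the tetherin that holds budding virus at the cell surface, was at 0.71 ± 0.21 (adjusted p = 0.0841), with 2713 and 6118 in L629F cells with iodide, 2425 and 3834 in L629F cells with chloride, 2126 and 1824 in wild type cells with iodide, and 2606 and 2076 in wild type cells with chloride. The L629F iodide arrays differed from each other by more than the groups did. In the same list 18 genes were above 0 over both salts and 12 below, with a median of 0.07, where 49.4% of all genes were above 0.

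Upstream genes did not pass in any comparison. Of 16 listed interferon receptor and signalling genes 12 were tested. With iodide over both lines 6 were above 0, against 52.2% of all genes, and 6 below. The receptor chain Ifnar2 was at 0.35 ± 0.10 (adjusted p = 0.0918), Stat2 at -0.40 ± 0.12 (adjusted p = 0.112) and the kinase Jak1 at -0.24 ± 0.09 (adjusted p = 0.190). A dimmer Ifnar2 probe set went the other way in wild type cells, with 1028 and 1065 with iodide and 1164 and 1316 with chloride. In L629F cells its arrays overlapped, at 1187 and 1128 with iodide and 1083 and 1172 with chloride. The dimmer probe sets of Stat2 and Jak1 had lower means with iodide in both lines. Of 12 nucleic acid sensors and adaptors, 6 were tested. For L629F against wild type, 5 of the 6 were above 0 with iodide and 5 without. Over both salts all 6 were above 0, with a median of 0.18, against 49.4% of all genes above 0. The signalling genes went the other way over both salts, with 3 of 12 above 0, 9 below and a median of -0.09. The Z-nucleic acid sensor Zbp1 was at 0.40 ± 0.16 (adjusted p = 0.190), the mitochondrial adaptor Mavs at 0.34 ± 0.16 (adjusted p = 0.247) and Sting1, the adaptor of cytosolic DNA sensing, at 0.17 ± 0.13 (adjusted p = 0.485). Centring every array on the median of all probe sets took the median of all genes over both salts to -0.17. The count of sensors and adaptors above 0 therefore depends on the scaling.

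**Figure D4:**
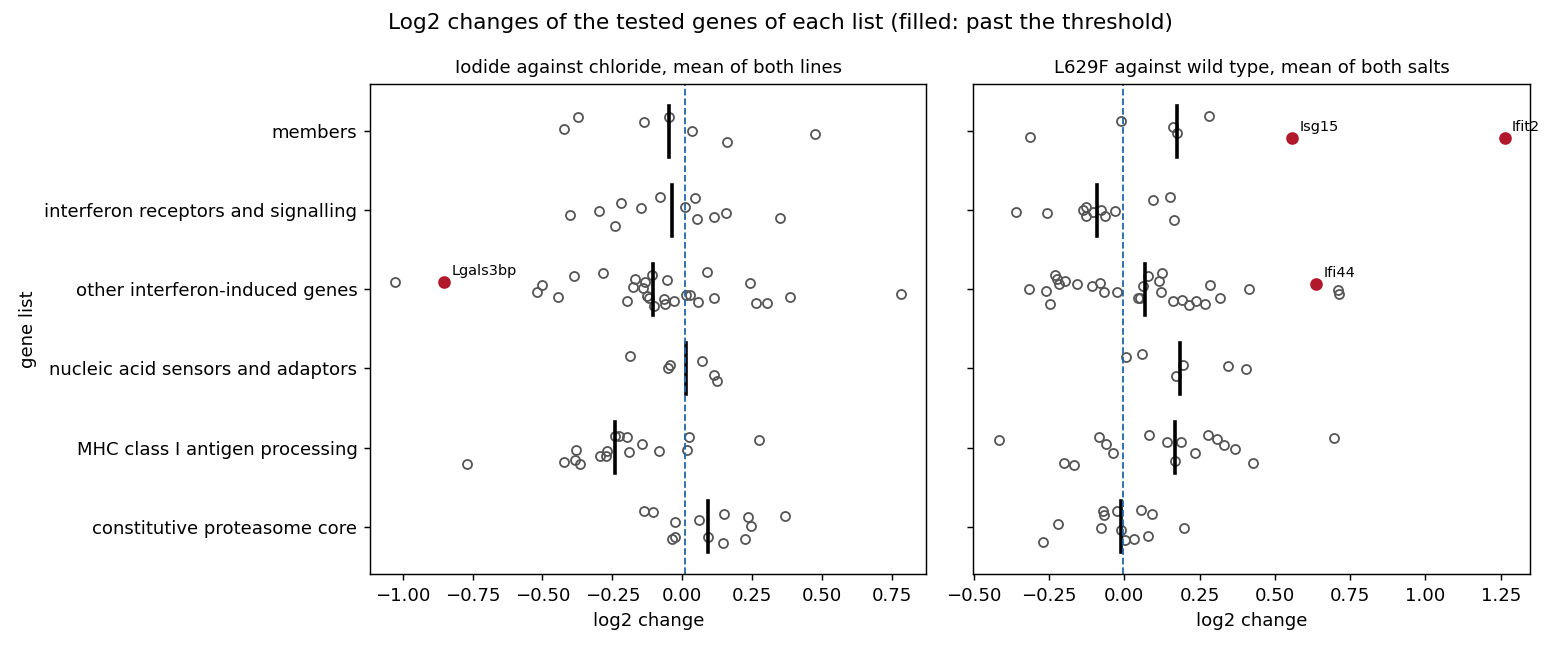
Log2 changes of the tested members and list genes for iodide against chloride (left, mean of both lines) and L629F against wild type (right, mean of both salts), with black bars at list medians and a dashed line at the median of all genes. Filled points passed an adjusted p of 0.05, and these are Lgals3bp on the left (-0.85) and Isg15, Ifit2 and Ifi44 on the right (0.56, 1.26 and 0.64).

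The 8 arrays share their scaling, and the following is a description only. The tested gene outside the members with the log2 values most like those of Ifit2 was Pdcd6ip (Pearson r = 0.97). The most like genes were Vangl1 for Isg15 (0.97), Acp2 for Irf1 (0.98) and Lrrc47 for Irf7 (0.97). They were Tigd3 for Psmb8 (0.98), Exosc4 for Psmb9 (0.97) and Dmxl1 for Tap1 (0.97). Each r is the highest among all tested genes outside the members, over only 8 arrays. Members that passed in no comparison reached values as high, so these values do not show shared regulation.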

How the data were processed

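The authors deposited linear intensities of each probe set, which MAS5 had made, per the submitters' processing notes. The version and scaling target of MAS5 are unknown here. Trimmed by 2% at each end, the array means averaged 500.2 over the 8 arrays. Symbols came from the platform annotation: 20826 probe sets had 1 symbol, 436 several and 9831 none. Without the 57 control probe sets and the lowest 40% (mean signal under 69.9), the brightest probe set stood for each of 10047 genes. Values were log2(signal + 35.3), not centred. limma 3.58.1 in R 4.3.3 (lmFit, eBayes with an intensity trend) fitted 4 group means over 8 arrays (4 residual and 9.52 prior degrees of freedom), with 7 comparisons, two-sided, Benjamini-Hochberg adjusted over all genes at 0.05. The fit was tested on simulated data. The median SE was 0.20 within a line and 0.14 for an average, and the number of arrays limits the precision. Named besides the members are list genes past the threshold, the 3 of smallest p in each interferon or antigen processing list, thyroid markers and the constitutive counterparts of the inducible subunits. Psmb6 was not analysed here. Members and lists were chosen with earlier results of these data known. Alternatives changed the pseudocount, filter, scaling, probe set choice, variance moderation, covariates, replicate term and arrays. Plots used matplotlib 3.10.9 (Python 3.11.15).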

Additional observations from a re-analysis of the deposited data

Results flagged for a closer look

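The iodide effect on the brighter Ifit2 probe set differed in direction between the lines. Both L629F iodide arrays (195.8 and 116.8) lay below both L629F chloride arrays (274.1 and 307.5), and both wild type iodide arrays (84.8 and 108.9) lay above both wild type chloride arrays (76.4 and 23.0). The difference of the iodide effects, L629F minus wild type, was -1.50 ± 0.53 on the log2 scale and did not pass limma's test (adjusted p = 0.993), in which 0 of 10047 genes passed and 4.17% had an unadjusted p under 0.05. The dimmer Ifit2 probe set gave 0.57 ± 0.56 for the same difference.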

How the results depend on the processing

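Ifit2 kept its sign in both called receptor comparisons under the 21 alternatives that held its value, from 1.54 to 2.48 without iodide and from 1.02 to 1.498 over both salts, and it passed in 14 and 15 of them. Isg15 passed over both salts in 4 of 22 alternatives, Ifi44 in 8 of 22 and, for iodide, Lgals3bp in 20 of 22. No called result changed sign. For L629F against wild type without iodide, the count of members past the threshold was 0 with no filter, with the lowest 60% left out (which removes Ifit2), with probe sets averaged per gene and without an intensity trend, and 0 to 1 when 1 array was left out. Over both salts the count was 1, in place of 2, with a doubled pseudocount, quantile normalization, centring on the kept probe sets, every kept probe set fitted on its own, no intensity trend, the beta-actin ratio as a covariate or without the 2 arrays of highest GAPDH ratio. It was 0 with no filter or with the lowest 60% left out, and 0 to 1 when 1 array was left out. The list genes past the threshold for iodide over both lines numbered 2 with the lowest 60% left out, the mean of probe sets, every kept probe set, the beta-actin ratio or without the 2 arrays of highest GAPDH ratio, 3 with quantile normalization, 0 without an intensity trend and 0 to 2 when 1 array was left out. In each line alone they numbered 1 with the GAPDH or the beta-actin ratio. Between the receptors they numbered 1 without iodide with the GAPDH ratio, 0 to 1 with iodide when 1 array was left out, and over both salts 2 with a doubled pseudocount, 0 with no filter, every kept probe set, no intensity trend or the beta-actin ratio, 5 with centring on all probe sets, 3 with the GAPDH ratio and 0 to 1 when 1 array was left out. With the main filter and 1 value per gene, these are of 65 tested list genes and 10047 genes. Over those 10047 genes, centring on all probe sets gave 1381 calls over both salts and the GAPDH ratio 723. For iodide over both lines, quantile normalization gave 179 calls and the beta-actin ratio 295. Leaving out the lowest 60% gave 194 calls of 8025 genes, and every kept probe set 150 of 13927 probe sets. Without a filter, 78 list genes and 14217 genes were tested. The beta-actin covariate, leaving out the 2 arrays of highest GAPDH ratio and fitting every probe set with no filter were chosen after seeing the data. Except for the removed gene, the cause was not tested.

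The labels share replicate numbers 1 and 2 between the groups. Same-numbered arrays deviated together at r = 0.04 to 0.22 over 6 pairs of groups, so they were not taken as pairs. With the replicate number as a block, 1 member passed for iodide in wild type cells (Psmb8) and 2 over both lines (Psmb8 and Psmb9), and list genes past the threshold numbered 3 in wild type cells, 1 in L629F cells, 5 over both lines, 1 without iodide, 1 with iodide and 4 over both salts. Over all genes the block gave 527 calls for iodide over both lines, in place of 167, and 802 between the receptors over both salts, in place of 317, and no intensity trend gave 18 and 170. Centring on the median of all probe sets moved the median of all genes between the receptors over both salts by -0.17 and gave 1381 calls, 10.5% of them higher, against 65.3% in the fit without centring. Under it Psmb9 was lower in L629F cells (-0.48, adjusted p = 0.0387), Isg15 did not pass (0.39, adjusted p = 0.0798) and Ifit2 passed. Dim signals limit Ifit3, Mx1 and both Ifit2 probe sets.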

Other observations

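Irf8, an interferon regulatory factor best known from leucocytes and named after its values were seen, read 15025 and 15719 in L629F cells with iodide, 14012 and 13325 in L629F cells with chloride, 13904 and 18563 in wild type cells with iodide, and 13892 and 15233 in wild type cells with chloride. It did not pass for iodide over both lines (0.16 ± 0.10, adjusted p = 0.483) or between the receptors over both salts (-0.08 ± 0.10, adjusted p = 0.696). The Irf8 values come from 1 probe set. Of 12 leucocyte markers on the same arrays, 7 were near background (Ptprc, Itgam, Cd3d, Cd79b, Cd68, Adgre1 and Aif1). The other 5 were above 70, with mean signals of 79.9 for Csf1r, 82.0 for Lyz2, 117 for Cd3e, 156 for Cd14 and 268 for Fcgr3a.

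Cxcl11, a chemokine induced by interferon gamma and named after its values were seen, had the lowest log2 change with iodide among the other interferon-induced genes, -1.03 ± 0.33 over both lines (adjusted p = 0.140). It read 25.3 and 161 in L629F cells with iodide, 187 and 269 in L629F cells with chloride, 114 and 66.2 in wild type cells with iodide, and 174 and 183 in wild type cells with chloride. The L629F iodide arrays lay far apart, and Cxcl11 passed when L629F iodide replicate 2 was left out, alone or with wild type iodide replicate 2 (the 2 highest GAPDH ratios).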
